A study of Homo sapiens with 6 samples.

Results

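The keratin and keratin-associated protein genes were followed in U-87 MG cells after exposure to electromagnetic fields. U-87 MG is an established line grown from a human glioblastoma, a malignant tumour of glial cells. The members are all symbols of the array annotation that begin with KRTAP, or with KRT followed by a digit. They number 139 of the 14884 genes measured, and each was read from 1 probe set, the one with the highest mean over all 6 arrays. Of these, 26 are type I keratins, 21 are type II keratins, 84 are keratin-associated proteins, 7 are keratin pseudogenes and 1 is the antisense RNA KRTAP5-AS1.

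There were 3 arrays of cells exposed to fields and 3 arrays of unexposed cells, and the labels call the 3 of each group biological replicates. Exposed cells spent 54 h without a break in a culture box within a Faraday chamber, starting 24 h after seeding, under RGFIELDS. The fields had HSP70, CHI3L1, miR-381 and a mutated alpha-kinase 2 gene as targets. Unexposed cells spent the same time in a control box outside that chamber, so field and box cannot be told apart. The description of the exposed samples calls them both exposed and control cells, and the groups were taken from the titles.

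Keratins are the intermediate filament proteins of epithelia. A type I (acidic) and a type II (basic) keratin pair to build each filament, KRT18 with KRT8 in simple epithelia and other pairs in skin, nail and hair. Keratin-associated proteins are small proteins rich in cysteine, or in glycine and tyrosine, that cross-link the hair keratins in the shaft of the hair, and they are not typical products of glial cells. Astrocytes and gliomas build their filaments mainly from VIM (vimentin) and GFAP.

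Most of the members stood low on the arrays. On the log2 scale of the deposited values, 53 of the 139 members had a mean above 3.96, the median of all probe set means. This was 38.1% of the members, while 72.0% of all 14884 genes stood above it. The median level was 3.42 over the members and 5.28 over all genes, and 15 members were above the latter value. Set against the median of all probe sets on the same array, 44 members were above it on all 6 arrays. On all 6 arrays 78 members were below it, and 17 lay on both sides. The table has no detection calls, so a level above any of these medians is not a call of expression. Probes differ in how well they bind, and no level was divided by length, so the order of members is an order of probe set values and not of transcripts.

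The 28 keratin-associated protein genes above the median were, from the highest, KRTAP5-7, KRTAP1-5, KRTAP10-6, KRTAP10-10, KRTAP9-2, KRTAP10-9, KRTAP10-12, KRTAP5-1, KRTAP9-8, KRTAP6-2, KRTAP10-2, KRTAP12-4, KRTAP20-1, KRTAP17-1, KRTAP2-3, KRTAP10-5, KRTAP27-1, KRTAP20-2, KRTAP5-5, KRTAP5-2, KRTAP21-1, KRTAP19-5, KRTAP1-1, KRTAP10-1, KRTAP23-1, KRTAP10-8, KRTAP16-1 and KRTAP1-3. The type I keratins above it were KRT18, KRT31, KRT33B, KRT37, KRT15, KRT16, KRT19, KRT36 and KRT14. The type II keratins above it were KRT80, KRT75, KRT8, KRT85, KRT78, KRT79, KRT3, KRT7, KRT74 and KRT4. The pseudogenes KRT16P2, KRT42P, KRT18P55, KRT17P5 and KRT16P3 and the antisense RNA KRTAP5-AS1 completed the 53. By class this was 10 of 21 type II keratins, 9 of 26 type I keratins and 28 of 84 keratin-associated protein genes.

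KRTAP1-5 and KRTAP2-3 both stood among the 53. KRTAP1-5 had a mean of 7.85, rank 2 of the 139 members, and 84.0% of all genes had a lower mean. KRTAP2-3 was at 4.81, rank 26 of 139, and 42.6% of all genes had a lower mean. Ranked by the exposed arrays alone, KRTAP1-5 was at rank 4 and KRTAP2-3 at rank 45. Ranked by the unexposed arrays alone, they were at ranks 1 and 17. The members nearest to the median from above were KRTAP16-1 and KRT14, each at 4.02, and KRTAP1-3 at 3.97. Those nearest from below were KRT24 at 3.88, KRT32 at 3.82 and KRT83 at 3.80.

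**Figure D1:**
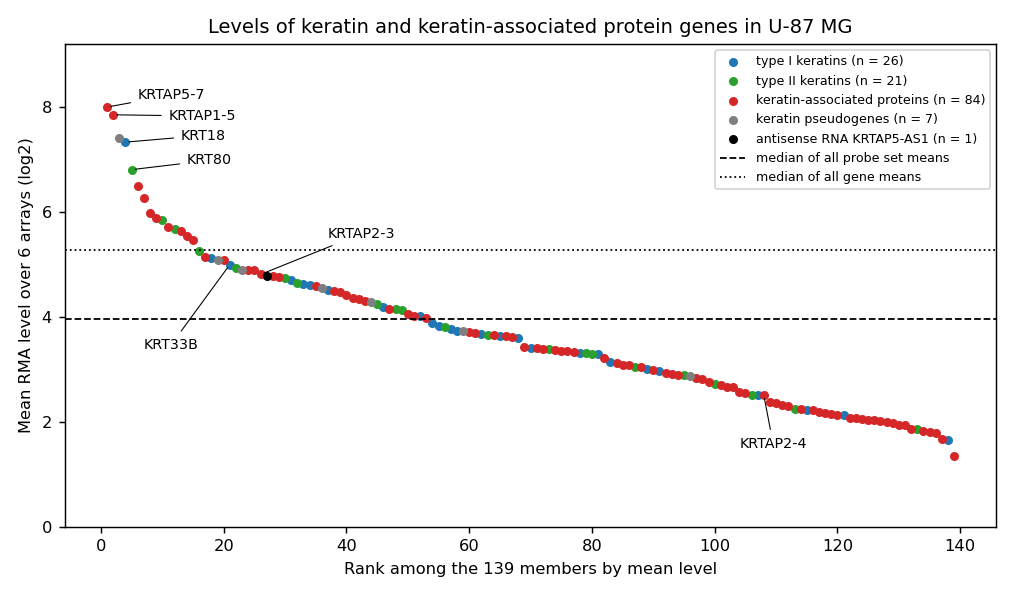
Mean log2 level over the 6 arrays (vertical axis) of each of the 139 members, ranked from the highest (horizontal axis) and coloured by class; the lines mark the medians of all probe set means (3.96) and of all gene means (5.28). KRTAP1-5 is at rank 2 and KRTAP2-3 at rank 26, and 86 members lie under the lower line.

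The keratin-associated protein subfamilies differed in how many members stood above the median. All 3 measured KRTAP1 genes did, KRTAP1-3 only narrowly (3.97 against 3.96, and above the array's own median on 2 of 6 arrays). So did 8 of 11 KRTAP10 genes, 4 of 11 KRTAP5 genes, 2 of 6 KRTAP9 genes and 1 of 4 KRTAP2 genes. None of the 11 KRTAP4 genes, 4 KRTAP13 genes or 3 KRTAP3 genes did. By chromosome the counts were 4 of 11 on chromosome 11, 8 of 29 on chromosome 17 and 16 of 44 on chromosome 21. Genes of 1 subfamily are close copies of each other, so probes for one member may bind transcripts of another, and their values are not independent.

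Exposed cells had lower levels of KRTAP2-3, KRTAP1-5 and the type II keratin KRT80. In limma's fit over all 53617 probe sets, with Benjamini-Hochberg adjustment over the 14884 genes and a threshold of 0.05, 3 members fell, 0 rose and 136 did not pass. Of all genes, 3.06% passed by the same rule, 1.67% falling and 1.40% rising, so 3 of 139 is a share near the background and the count says little about the members as a group. All 3 stood above the median level, where 2.32% of all genes fell. Of the 4172 genes below that median, the 86 other members among them, 0 passed in limma, and 191 had an unadjusted p under 0.05. The members' median log2 change was -0.01, with 71 negative and 68 positive, and the median over all genes was 0.00. The changes of 133 members lay within 0.5 log2 of 0 and those of 6 went beyond it, as did those of 3.33% of all genes.

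KRTAP1-5 and KRTAP2-3 encode high-sulfur proteins of the hair cortex. They lie on chromosome 17 in the same array of keratin-associated protein genes, and RefSeq's promoter windows (assembly GRCh38.p14) hold all 7 measured KRTAP1 and KRTAP2 genes. The stretches below are shown because 2 of the 7 genes fell and the other 5 did not pass. Each is the minus strand, 5′ to 3′, and lies upstream of the annotated start. The capitals mark the hexamer TATAAA, the core of the TATA box, on which the 7 stretches are aligned.
KRTAP2-3 (chr17:41060115-41060182): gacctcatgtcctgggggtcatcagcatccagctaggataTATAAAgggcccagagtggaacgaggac
KRTAP2-1 (chr17:41047332-41047399): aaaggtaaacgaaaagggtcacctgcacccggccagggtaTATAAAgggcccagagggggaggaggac
KRTAP2-2 (chr17:41055276-41055343): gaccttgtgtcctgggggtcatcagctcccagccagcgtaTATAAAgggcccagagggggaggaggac
KRTAP2-4 (chr17:41065910-41065977): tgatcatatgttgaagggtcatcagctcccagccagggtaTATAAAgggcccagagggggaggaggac
KRTAP1-5 (chr17:41027211-41027278): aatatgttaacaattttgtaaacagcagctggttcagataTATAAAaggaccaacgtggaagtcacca
KRTAP1-1 (chr17:41041453-41041520): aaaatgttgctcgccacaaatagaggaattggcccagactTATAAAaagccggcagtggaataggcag
KRTAP1-3 (chr17:41034877-41034944): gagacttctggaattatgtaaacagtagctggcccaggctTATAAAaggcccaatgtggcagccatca

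Over these 68 bases, compared without gaps, KRTAP2-3 shared 85.3% of its bases with KRTAP2-2 and 67.6% with each of KRTAP2-1 and KRTAP2-4. KRTAP1-5 shared 70.6% with KRTAP1-3 and 51.5% with KRTAP1-1. The 2 genes that fell, KRTAP2-3 and KRTAP1-5, shared 52.9% with each other. The hexamer begins 28 bases before the annotated start in KRTAP2-3 and 30 before it in all 3 KRTAP1 genes. In KRTAP2-1, KRTAP2-2 and KRTAP2-4 it begins 43, 73 and 58 before it. The bases shown after the hexamer are the same in KRTAP2-1, KRTAP2-2 and KRTAP2-4. These distances rest on RefSeq's annotated starts, which were not tested.

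TATAAA, searched on both strands of the 250 bases upstream, was common among the members. It occurred in 72 of 107 windows (67.3%) of the 103 members with a RefSeq window, against 3763 of 35116 windows of all genes (10.7%). The share was 75.7% of 70 windows of keratin-associated protein genes, 63.6% of 22 windows of type I keratins and 35.7% of 14 windows of type II keratins. Of the keratin-associated protein windows, 77.3% of the 22 of genes above the median level held it, and 75.0% of the 48 of genes below. A match is a description of the letters and not a binding site.

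KRTAP1-5 read 7.25, 7.07 and 7.53 on exposed replicates 1 to 3, against 8.30, 8.55 and 8.41 on unexposed replicates 1 to 3. Every exposed value was below every unexposed value. Exposed arrays averaged 7.28 ± 0.23 and unexposed arrays 8.42 ± 0.12 (SD, n = 3 each). The log2 change was -1.14 (SE 0.12, 95% interval -1.42 to -0.85, adjusted p = 0.0260), or 2.20-fold lower. Of the 14884 genes, 2 had a larger fall.

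KRTAP2-3 read 4.16, 4.02 and 4.45 in exposed cells, against 5.20, 5.58 and 5.45 in unexposed cells. Again the groups did not overlap, and the exposed values lay close to the median of all probe sets. Exposed arrays averaged 4.21 ± 0.22 and unexposed arrays 5.41 ± 0.20 (SD, n = 3 each). The log2 change was -1.20 (SE 0.15, 95% interval -1.55 to -0.84, adjusted p = 0.0287), or 2.29-fold lower. RefSeq lists KRTAP2-3 and KRTAP2-4 each under the other's symbol as an older name, and the probe sets were matched here to the current symbols. The values are those of whole cultures, so fewer cells carrying a transcript and less transcript per cell cannot be told apart.

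Both calls depended on the arrays used. They were lost on leaving out replicate 1 or 2 of the exposed arrays, or replicate 2 or 3 of the unexposed arrays, with adjusted p of 0.0704 to 0.120. In these 4 fits the log2 change was -1.14 to -1.03 for KRTAP1-5 and -1.18 to -1.10 for KRTAP2-3. In limma without a mean-variance trend the adjusted p was 0.159 for each. In all of these fits limma called 0 of all 14884 genes, so the loss was not particular to KRTAP1-5 and KRTAP2-3.

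**Figure D2:**
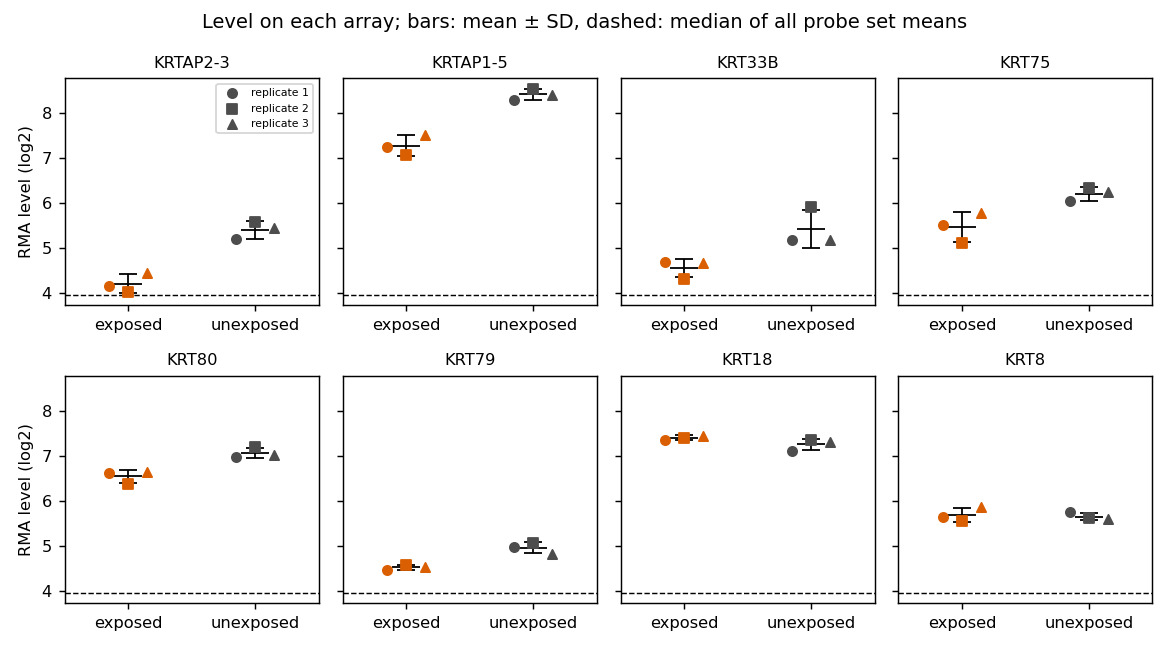
Log2 level (vertical axis) on each array for 8 members, exposed cells in orange on the left and unexposed cells in grey on the right of each panel; bars are the mean and SD of 3 arrays and the dashed line is the median of all probe set means. The groups do not overlap for KRTAP2-3, KRTAP1-5, KRT33B, KRT75, KRT80 and KRT79, and they overlap for KRT18 and KRT8.

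None of the other KRTAP1 and KRTAP2 genes passed. KRTAP1-3 changed by -0.12 (95% interval -0.47 to 0.23), and KRTAP1-1 by -0.12 (-0.50 to 0.25). KRTAP2-1 changed by 0.21 (-0.21 to 0.63), KRTAP2-2 by -0.24 (-0.75 to 0.27) and KRTAP2-4 by 0.09 (-0.29 to 0.47). KRTAP2-1, KRTAP2-2 and KRTAP2-4 were below the median of all probe sets on all 6 arrays, and KRTAP2-4, for example, read 2.73, 2.40 and 2.53 in exposed cells and 2.63, 2.50 and 2.26 in unexposed cells.

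Averaged on each array, KRTAP1-1 and KRTAP1-3 read 4.09 ± 0.06 after exposure and 4.22 ± 0.06 without it (SD over 3 arrays each). The other 3 KRTAP2 genes read 2.67 ± 0.05 after exposure and 2.66 ± 0.20 without it. With that average subtracted on each array, the difference between exposed and unexposed cells was -1.01 log2 for KRTAP1-5 and -1.22 for KRTAP2-3. These differences are a description with no test, since both genes were known to be among the largest falls, and the other 3 KRTAP2 genes stood at levels where 0 genes passed.

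Of the genes on either side in RefSeq's order, among the 5 nearest measured genes in each direction, KRTAP1-5 and KRTAP2-3 alone passed. The changes of KRT39 and KRT40, type I keratins of the hair, were 0.15 and 0.24. KRTAP3-3 changed by -0.43, with overlapping groups, KRTAP3-2 by -0.01 and KRTAP3-1 by -0.03. On the other side KRTAP4-7 changed by 0.06, KRTAP4-8 by -0.19, KRTAP4-9 by -0.05 and KRTAP4-11 by 0.11. All of these lay below the median level, where no gene passed. KRTAP1-4 was not analysed here.

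**Figure D3:**
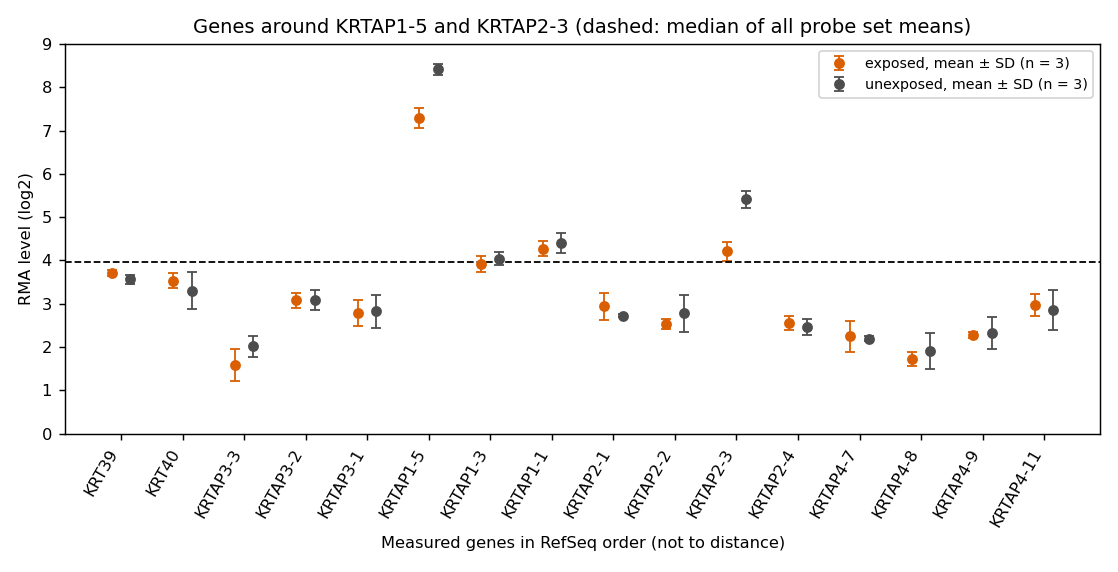
Log2 level (vertical axis) of KRTAP1-5, KRTAP2-3 and the measured genes around them, in RefSeq order and not to distance (horizontal axis), as mean and SD of 3 exposed (orange, left) and 3 unexposed arrays (grey, right). The group means of KRTAP1-5 (7.28 and 8.42) and KRTAP2-3 (4.21 and 5.41) lie apart, and those of the other genes differ by at most 0.43.

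Among the type II keratins, KRT80 fell. KRT80 is an epithelial keratin found at cell margins near desmosomes. It read 6.63, 6.37 and 6.63 in exposed cells, against 6.98, 7.20 and 7.02 in unexposed cells, with no overlap. Exposed arrays averaged 6.55 ± 0.15 and unexposed arrays 7.07 ± 0.12 (SD, n = 3 each). The log2 change was -0.52 (SE 0.10, 95% interval -0.76 to -0.28, adjusted p = 0.0434), or 1.44-fold lower. This call was lost with any 1 of the 6 arrays left out (adjusted p of 0.0643 to 0.135). It was also lost with adjustment over all probe sets (0.0702) and without a mean-variance trend (0.164). Limma called 0 of all genes without exposed replicate 1 or 2, without unexposed replicate 2 or 3, and without the trend.

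A further 3 keratins had groups that did not overlap, exposed below unexposed, without passing the threshold. KRT75, a type II keratin of the companion layer of the hair follicle, read 5.52, 5.11 and 5.77 in exposed cells and 6.04, 6.34 and 6.26 in unexposed cells (log2 change -0.75, 95% interval -1.14 to -0.35, adjusted p = 0.0620). KRT33B, a type I keratin of the hair cortex, read 4.69, 4.32 and 4.67 in exposed cells and 5.18, 5.93 and 5.19 in unexposed cells (-0.87, -1.37 to -0.36, adjusted p = 0.0758). Unexposed replicate 2 was its highest array, and the change was -0.62 without that array. KRT79, a type II keratin of the hair canal and sebaceous ducts, read 4.47, 4.58 and 4.53 in exposed cells and 4.98, 5.07 and 4.82 in unexposed cells (-0.43, -0.69 to -0.17, adjusted p = 0.0835).

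Above the median level, 7 members had an unadjusted p under 0.05, and all 7 were lower in exposed cells. Of all 10712 genes above that level, 24.5% had such a p, 13.4% lower and 11.1% higher, so 7 of 53 is no larger a share. Besides the 6 named so far, this was KRTAP16-1 at -0.42 (adjusted p = 0.242), whose groups overlapped. Over all 139 members there were 12 with such a p, 9 lower and 3 higher, where 18.9% of all genes had one, 10.2% lower and 8.71% higher. The groups did not overlap for 18 of the 139 members, 9 in each direction, where they did not overlap for 27.0% of all genes, 13.8% lower and 13.2% higher in exposed cells. This share goes with level. Above the median the groups did not overlap for 7 members lower and 1 higher of 53. Of all 10712 genes there, they did not overlap for 33.0%, 1873 lower and 1661 higher. Below the median they did not overlap for 2 members lower and 8 higher of 86. Of all 4172 genes there, they did not overlap for 11.6%, 179 lower and 307 higher.

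In 6 of the 7 members above the median with such a p, exposed replicate 2 was the lowest of the 6 arrays, and in 6 of them unexposed replicate 2 was the highest. This count was made after the values were seen, and it was not made over all genes. On the first principal component of all probe sets, with 28.0% of the variance, the 2 arrays also lay farthest out on their sides. Exposed replicates 1 to 3 were at -26.4, -39.3 and -19.1, and unexposed replicates 1 to 3 at 15.3, 47.2 and 22.2. The 2 arrays thus stood apart over all probe sets too, and whether the order is particular to the members was not tested. The part of the 2 arrays in these results was not tested beyond leaving each out in turn.

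**Figure D4:**
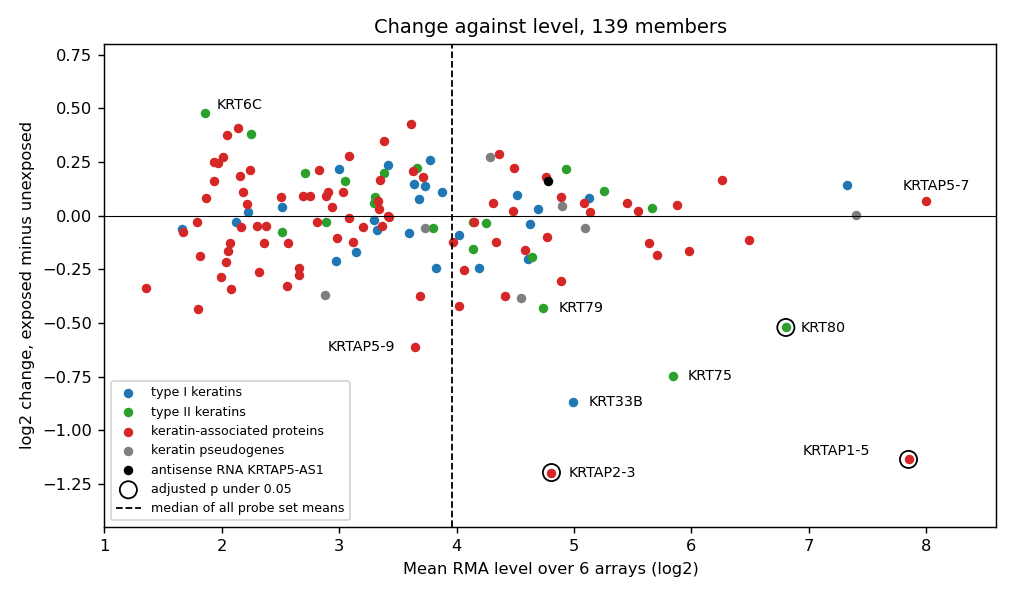
Log2 change, exposed minus unexposed (vertical axis), against mean log2 level over 6 arrays (horizontal axis) for the 139 members, coloured by class; circles mark the 3 members past the threshold and the dashed line the median of all probe set means. KRTAP2-3 and KRTAP1-5 lie lowest, at -1.20 and -1.14, and 133 members lie within 0.5 of 0.

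The pair of simple epithelia did not pass. KRT18 read 7.35, 7.40 and 7.45 in exposed cells and 7.11, 7.35 and 7.32 in unexposed cells, and its change was 0.14 (95% interval -0.05 to 0.34, adjusted p = 0.423). A separate probe set of KRT18 read lower, at 5.52, 5.60 and 5.40 in exposed cells and 5.59, 5.52 and 5.56 in unexposed cells, with a change of -0.05 (-0.27 to 0.17). KRT8 read 5.63, 5.56 and 5.86 in exposed cells and 5.74, 5.61 and 5.60 in unexposed cells, a change of 0.03 (-0.22 to 0.28). The values of the 6 arrays thus lay close together for both genes. RefSeq holds 68 symbols of KRT18 pseudogenes and 52 of KRT8 pseudogenes, and how far their probes share sequence with these was not tested.

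Other keratins of simple epithelia and of basal and differentiated keratinocytes stood on both sides of the median level. KRT15 was at 4.62, KRT19 at 4.51, KRT7 at 4.25 and KRT14 at 4.02. KRT1 at 3.38, KRT10 at 3.30 and KRT5 at 2.88 stood below it. None of them passed. The hair keratins KRT31 and KRT85 were at 5.13 and 5.26 with changes of 0.08 and 0.12, and neither passed.

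KRTAP5-7, the highest member at 8.00, belongs to the ultrahigh-sulfur proteins. It read 8.06, 8.01 and 8.02 in exposed cells and 8.20, 7.87 and 7.82 in unexposed cells, and its change was 0.07 (95% interval -0.17 to 0.31). The pseudogene KRT16P2, at rank 3 of the members, read 7.36, 7.47 and 7.38 in exposed cells and 7.44, 7.43 and 7.32 in unexposed cells, a change of 0.00. Both were thus high and nearly level across the 6 arrays.

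Of the next keratin-associated protein genes by level, KRTAP10-6 averaged 6.50 and changed by -0.11, KRTAP10-10 averaged 6.26 and changed by 0.16, and KRTAP9-2 averaged 5.98 and changed by -0.17. KRTAP10-12, at 5.71, had groups that did not overlap, with a change of -0.18 (adjusted p = 0.308). None of the 11 KRTAP10 genes, cuticle proteins encoded on chromosome 21, passed the threshold.

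No member rose by limma's test, and 3 were higher in exposed cells at an unadjusted p under 0.05, all below the median level. Above the median level the most positive changes were those of KRTAP19-5 (0.29), KRT16P3 (0.27), KRTAP5-5 (0.22), KRT78 (0.22) and KRTAP27-1 (0.18). KRT78 alone of these 5 had groups that did not overlap, at 5.00, 5.00 and 5.12 in exposed cells and 4.74, 4.85 and 4.90 in unexposed cells (adjusted p = 0.317). Below the median, KRT6C changed by 0.48 (adjusted p = 0.143), KRTAP5-11 by 0.43 (0.169) and KRT73 by 0.38 (0.255), and KRTAP5-9 by -0.61 (0.110) and KRTAP9-9 by -0.34 (0.174), and none of these 5 passed. The probe sets of KRTAP21-1, at means of 4.41 and 3.05, lay on both sides of the median.

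Companion lists describe the partners of keratins. They were picked by known role, with 68 of their 90 genes measured, and by limma's test 1 of these rose and 0 fell. Of all genes, 3.06% passed by this test and 18.9% had an unadjusted p under 0.05. The groups did not overlap for 27.0% of all genes. Of other intermediate filament genes, 8 of 15 were measured and 0 passed in limma (4 at an unadjusted p under 0.05). Their changes were negative for 6 and positive for 2, with a median of -0.07. All 8 stood above the median level, where 24.5% of all genes had such a p and the groups of 33.0% did not overlap. VIM was at 10.5 with a change of -0.06. GFAP read 5.05, 5.31 and 5.28 in exposed cells and 4.93, 4.86 and 4.79 in unexposed cells (change 0.35, adjusted p = 0.143). The lamins of the nuclear lamina had groups that did not overlap, LMNB1 with a change of -0.43 (adjusted p = 0.0569), LMNB2 with -0.27 (0.0728) and LMNA with -0.26 (0.102).

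Of desmosome and plakin genes, whose products anchor filaments, 18 of 20 were measured and 0 passed (2 at an unadjusted p under 0.05), with a median change of 0.10. PLEC (plectin) was at -0.35 (adjusted p = 0.0593), the desmosomal cadherin DSG2 at 0.39 (0.0758) and PPL (periplakin) at 0.20 (0.267). Of the cornified envelope, the cross-linked shell of dead keratinocytes, 16 of 20 were measured. Among these, 0 passed and 0 had an unadjusted p under 0.05. Their changes were negative for 6 and positive for 10, from -0.55 for SPRR1B to 0.42 for RPTN. RPTN alone of them had groups that did not overlap.

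Of the hair follicle list, 17 of 20 were measured and S100A3, a calcium-binding protein of the hair cuticle, rose. It read 8.50, 8.66 and 8.57 in exposed cells and 8.09, 7.75 and 7.94 in unexposed cells, a change of 0.65 (SE 0.10, adjusted p = 0.0298). This call was lost with the same 4 arrays left out in turn (adjusted p of 0.0784 to 0.120) and without a mean-variance trend (0.159). Limma called 0 of all genes in each of these fits. The regulator of hair keratin genes HOXC13 changed by -0.22 without passing. Of the skin transcription factors, 9 of 15 were measured and 0 passed (1 at an unadjusted p under 0.05), EHF being the most negative at -0.59 (adjusted p = 0.0665). S100A3, the 1 gene of the hair follicle list that passed, thus had a change of the opposite sign to KRTAP1-5 and KRTAP2-3.

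Markers of other cell types were read for the same arrays. Of the 11 glioma and astroglial markers, all measured, 8 stood above the median and 0 passed. An unadjusted p under 0.05 was found for 3 of them, where 18.9% of all genes had one. FN1 was at 12.0, TNC at 11.8, VIM at 10.5 and CD44 at 8.93, while SOX2, S100B and AQP4 stood below the median at 3.60, 3.47 and 2.95. The 9 measured keratinocyte markers include the members KRT1, KRT5, KRT10, KRT14 and KRT15. The highest of the 9 was SBSN at 8.70, and their median level was 4.02. Their summed log2 level was 37.9 to 39.0 in exposed and 37.9 to 38.7 in unexposed cells. That of the 9 measured simple epithelial markers was 38.4 to 39.7 in exposed and 38.3 to 39.5 in unexposed cells. The 9 measured hair shaft markers include S100A3 and the members KRT31, KRT33A, KRT33B, KRT35 and KRT85. Their sum was 38.9 to 39.6 in exposed and 39.2 to 39.8 in unexposed cells, and in all 3 lists the groups overlapped.

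The 3 measured of 9 fibroblast markers summed to 14.8 to 15.3 in exposed and 13.8 to 14.1 in unexposed cells. LUM (lumican) among them rose by 0.83 (adjusted p = 0.0287), and the part of this in the keratin results was not tested. Of 4 measured endothelial and 2 measured leukocyte markers 0 passed, with sums of 16.5 to 17.2 in exposed and 16.2 to 16.9 in unexposed cells for the first list, and 15.6 to 15.7 in exposed and 15.0 to 15.4 in unexposed cells for the second.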

How the data were processed

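Total RNA of 6 cultures was hybridised to 1-colour Affymetrix arrays. The deposited table holds 1 log2 value per probe set and array. The authors summarised it with RMA in Affymetrix Expression Console 3.0 and Transcriptome Analysis Console 3.0, per the submitters' processing notes; the genome build is not given in the sources used here. Values ran from 0.460 to 13.8 and array medians from 3.96 to 3.99. RMA makes array distributions alike, so a shift in total RNA would not show. The table gives no detection calls or scan dates, and precision is limited by how few arrays there are.

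Of 53617 probe sets, 16098 carried 1 symbol, 0 several and the rest none here. All 139 members carry current RefSeq symbols. RefSeq holds 55 coding keratin symbols, of which 47 were measured, and 94 coding KRTAP symbols, of which 84 were. The difference, exposed minus unexposed, was fitted with limma 3.58.1 in R 4.3.3 (lmFit, eBayes with trend, two-sided, no covariates, no filter) on all probe sets, and p-values were adjusted by Benjamini-Hochberg over 14884 genes. The procedure was tested on simulated data. Members and lists were chosen with earlier results of these data known.

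Named genes are KRTAP1-5 and KRTAP2-3, their subfamilies and neighbours, members past the threshold or with the highest levels, members next to the median, those with the largest changes above it, and in each list those past the threshold or with the smallest p. All other names, such as members with an unadjusted p under 0.05, were added after their values were seen. Promoter letters are RefSeq's (GRCh38.p14); 103 members matched. Sequences were searched with Python 3.11.15 and figures drawn with matplotlib 3.10.9.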

Additional observations from a re-analysis of the deposited data

How the results depend on the processing

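Over the alternatives tried, KRTAP2-3, KRTAP1-5, KRT80 and S100A3 kept their direction. This was largely fixed in advance, since their groups do not overlap, and leaving out 1 array cannot then reverse a sign. The replicate block, the fit without a trend, and other choices of adjustment or of probe sets leave the change itself the same. Without 1 replicate, 0 to 3 members and 0 to 2 companion genes passed, and 51 to 53 members stood above the median. KRTAP2-3 then changed by -1.32 to -1.10 and KRTAP1-5 by -1.26 to -1.03. With replicate 1 or 2 of the exposed, or replicate 2 or 3 of the unexposed arrays left out, limma called 0 of all genes, with 9 to 14 members under an unadjusted p of 0.05. Without a mean-variance trend limma called 0 of all 14884 genes, and so 0 members and 0 companion genes (13 members at unadjusted p under 0.05). KRTAP2-3 was then at -1.20 and KRTAP1-5 at -1.14 (adjusted p = 0.159 each). With probe sets above the median alone, 4 members (KRT75 added) and 5 companion genes passed, as did 753 of all 10712 genes tested. Fitted on the 14884 representative probe sets alone, an alternative chosen after seeing the data, 7 members (KRT33B, KRT75, KRT79 and KRTAP5-9 added) and 7 companion genes passed, all 7 members lower, and 1209 of all genes instead of 456. Adjusted over all probe sets, 162 genes and 2 members passed. With the median taken over genes, the cut was 5.28 instead of 3.96, and 15 instead of 53 members stood above it. The cause of the differences in the numbers of genes called was not tested. Quantile normalization, median centring and averaging all probe sets per gene left 3 members past the threshold, again KRT80, KRTAP1-5 and KRTAP2-3.

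With the replicate number as a block, limma called 0 of all 14884 genes, and so 0 members and 0 companion genes (11 members at unadjusted p under 0.05). KRTAP2-3 was then at -1.20, KRTAP1-5 at -1.14 and S100A3 at 0.65 (adjusted p = 0.127 each). Over all probe sets, deviations from the group mean correlated at -0.016, -0.025 and 0.0096 between same-numbered arrays. Arrays with different numbers correlated at -0.019 to 0.035. A shared effect on few genes would not show in these values, and the labels do not say whether a number marks a pair.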
